A study of Drosophila melanogaster with 8 samples.

Results

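Transcripts of the nuclear genes for respiratory complexes III and IV, cytochrome c and ATP synthase were compared between Dahomey and Oregon R, 2 strains of the fruit fly Drosophila melanogaster. The genes were taken by symbol, through the FlyBase gene IDs of the table that compares the strains, and were 33 of the 14701 gene IDs in it: 9 of complex III, 2 of cytochrome c, 9 of complex IV and 13 of ATP synthase. All 33 were found, each on a single row. UQCR-11 was listed at a mean of 0 and had no fold change, so 32 genes had a p-value. Why UQCR-11 was listed at 0 is not known, so the value is not evidence that the gene is silent.

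RNA came from mated females aged 10 days that were bred and kept at 25 °C, as heads and thoraxes together with the abdomens left out, from 60 flies per library. Each strain, Dahomey and Oregon R, had 4 libraries, and no genetic change or treatment is named for either. The data were the authors' DESeq2 comparison, which gives a mean normalized read count over the 8 libraries, the log2 ratio of the strains and its standard error (SE), and a p-value adjusted over the table. It holds no value for a single library, so the spread between libraries is seen only through the SE. A negative fold change was taken to mean lower in Dahomey, because the table is named with Dahomey ahead of Oregon R. Its headers are silent on the sign, and if the ratio ran the other way every direction below would be inverted.

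Complex III takes electrons from ubiquinol and hands them to cytochrome c, a small soluble protein between the mitochondrial membranes. Complex IV passes them from cytochrome c to oxygen, and the protons that both complexes move across the inner membrane drive ATP synthase. The catalytic centres of complexes III and IV include proteins made from the mitochondrial genome, around which the nuclear subunits assemble. Insect flight muscle, photoreceptors and neurons, all present in heads and thoraxes, are rich in mitochondria. In RNA from whole tissue, fewer cells of one type and less RNA per cell cannot be told apart.

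Most of these genes were lower in Dahomey, by small amounts. By the authors' DESeq2 test at an adjusted p under 0.05, 20 of the 32 genes were lower in Dahomey, which is 62.5%, against 14.7% of all 13065 genes with a p-value. None of the 32 was higher at that threshold, against 14.8% of all genes. At an unadjusted p under 0.05 by the same test, 1 of the 32 was higher and 23 were lower. Of all 13065 genes, 2404 were higher and 2382 lower at that unadjusted level. Genes with many reads are called more often, so the adjusted counts were also set beside 1721 genes with a mean of at least 10000. Among the 32, 31 reached that mean. Of the 1721 genes, 19.4% were lower in Dahomey and 25.5% were higher at the adjusted threshold. The median log2 fold change of the 32 genes was -0.22, a difference of -13.9%, while the median of all genes tested was -0.0056 and that of genes with a mean of at least 10000 was 0.033. No gene of the 32 differed by 2-fold. Of all genes, 5.22% passed and did, as did 42 of the 1721 genes with a mean of at least 10000. At the latter rate hardly any would be looked for in a set of 32. By 1.2-fold or more, 12 genes were lower and passed, against 11.7% of all genes, and at an adjusted p under 0.01 there were 18 lower genes, against 11.4% of all genes. The 32 genes varied among themselves, and 18 of them had a 95% interval that held their own median of -0.22.

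**Figure D1:**
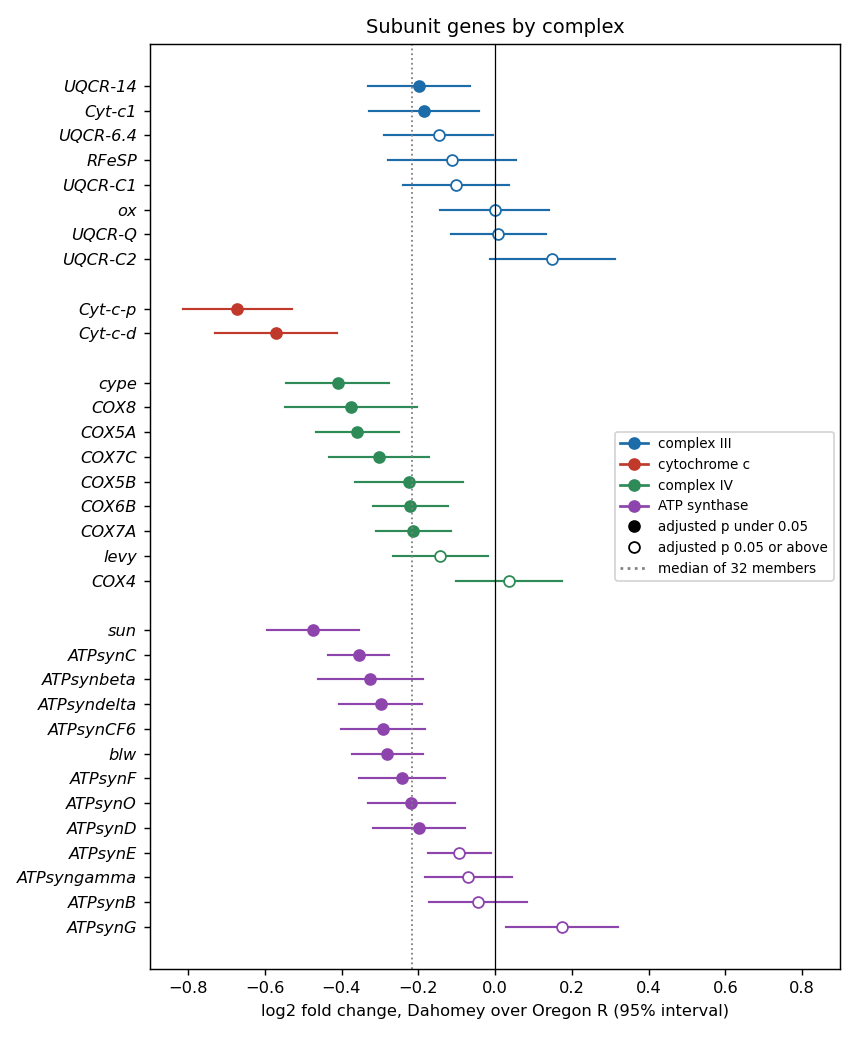
The points are log2 fold changes, Dahomey over Oregon R, of the 32 genes with a p-value, from the authors' deposited table, grouped by complex and ordered within it; bars are 95% intervals from the authors' SE, and filled points passed an adjusted p of 0.05. Both cytochrome c genes lie farthest to the left, and 6 of the 8 complex III points are open.

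**Figure D2:**
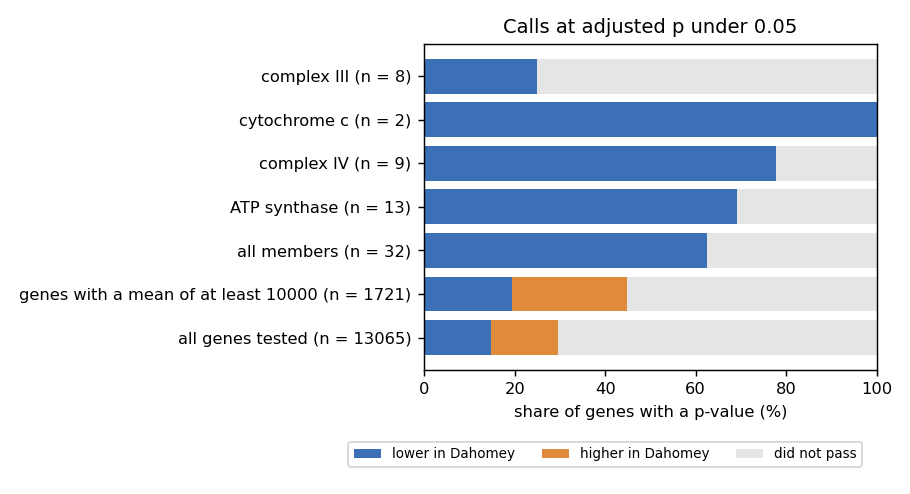
Bars give the share, in percent, of genes with a p-value that were lower in Dahomey, higher in Dahomey or did not pass, for each complex, for all 32 members, and for 2 wider sets of genes. Among the 4 groups of members the share lower in Dahomey runs from 25.0% for complex III to 100% for the 2 cytochrome c genes.

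The complexes differed in how many of their genes passed, though the differences between complexes were not tested. Complex III had 2 of 8 genes lower in Dahomey, or 25%, and a median log2 fold change of -0.11. Its share lay near the 19.4% of genes with a mean of at least 10000, while 14.7% of all genes were lower. Complex IV had 7 of 9 lower, or 77.8%, with a median of -0.22. ATP synthase had 9 of 13 lower, or 69.2%, with a median of -0.24. Both genes of cytochrome c were lower. When each gene's mean was divided between the strains according to its fold change, the complex III genes summed to 704802 normalized counts in Dahomey and 742079 in Oregon R, a difference of -5.02%. Complex IV summed to 574890 in Dahomey and 664680 in Oregon R, a difference of -13.5%, and ATP synthase to 1245355 in Dahomey and 1487209 in Oregon R, a difference of -16.3%. These sums rest on the authors' mean and fold change, not on measured group means.

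Of the electron-carrying subunits of complex III, Cyt-c1 passed and RFeSP did not. Cyt-c1 encodes cytochrome c1, the subunit that delivers electrons to cytochrome c (FBgn0035600, arm 3L). The authors' deposited table gave it a mean of 111028 and a log2 fold change of -0.18 ± 0.073 (SE; DESeq2 adjusted p = 0.0407). RFeSP, the Rieske iron-sulphur protein that feeds cytochrome c1 (FBgn0021906, arm 2L), had -0.11 ± 0.085 in the authors' deposited table and did not pass, with a 95% interval of -0.28 to 0.05. The large core proteins lay on either side of 0. UQCR-C1 (FBgn0038271, arm 3R), the complex III gene of the highest mean at 139200, had -0.10 ± 0.070, and UQCR-C2 (FBgn0250814, arm 3L) had 0.15 ± 0.083 in the authors' deposited table, and neither passed.

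Of the small complex III subunits, only UQCR-14 passed. This gene (FBgn0030733, X chromosome) had a mean of 103621 and a log2 fold change of -0.20 ± 0.068 (SE) in the authors' deposited table, with a DESeq2 adjusted p of 0.0155. In the BDGP6 annotation 100% of its exonic bases are also exonic in CG32576, on the opposite strand, which the authors' deposited table lists at a mean of 67367 and a log2 fold change of -0.17 ± 0.068. The library kit named in the labels does not mark strand, so reads from the shared bases cannot be assigned to UQCR-14 or CG32576 by strand. The annotation used for counting is not given, so how such reads were counted is not known. UQCR-6.4 had -0.15 ± 0.073, ox -0.00094 ± 0.073 and UQCR-Q 0.0088 ± 0.063 in the authors' deposited table. The intervals of ox and UQCR-Q ran from -0.14 to 0.14 and from -0.12 to 0.13. Both overlapped the 95% interval of Cyt-c1, -0.33 to -0.04, and a difference between these genes was not tested.

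Cytochrome c had the lowest fold changes of the set. Cyt-c-p, the main cytochrome c gene of somatic tissue (FBgn0284248, arm 2L), had a mean of 99784 and a log2 fold change of -0.67 ± 0.073 (SE) in the authors' deposited table, with a DESeq2 adjusted p of 1.29e-18. Split by that fold change, the mean corresponds to 76980 normalized counts in Dahomey and 122588 in Oregon R, a difference of -37.2% with a 95% interval of -43.1% to -30.7%. Cyt-c-d, the other cytochrome c gene, known for its part in caspase activation and sperm maturation (FBgn0086907, arm 2L), had a mean of 2215 and -0.57 ± 0.081 in the authors' deposited table, with a DESeq2 adjusted p of 4.07e-11. That corresponds to 1783 normalized counts in Dahomey and 2646 in Oregon R. Per length of exon, the level of Cyt-c-p was 55.4 times that of Cyt-c-d. Of the exonic bases of Cyt-c-d, 36.4% are shared with CG31808 on the opposite strand, listed at a mean of 14601 and a log2 fold change of -0.39 ± 0.091 in the authors' deposited table, so reads of the 2 genes from those bases cannot be told apart. Cyt-c-p shared no exonic base with another gene.

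Nuclear subunits of complex IV surround a catalytic core made in the mitochondrion, and nearly all of them had negative fold changes. COX5A, which in mammals lies on the matrix side (FBgn0019624, arm 3R), had the smallest p: in the authors' deposited table its mean was 89073 and its log2 fold change -0.36 ± 0.056 (SE; DESeq2 adjusted p = 1.82e-09). Split by strain, this corresponds to 78064 normalized counts in Dahomey and 100081 in Oregon R. The gene cype, which encodes the subunit known as 6C in mammals (FBgn0015031, arm 2L), had the lowest value of the complex, at a mean of 54925 and -0.41 ± 0.069 in the authors' deposited table (DESeq2 adjusted p = 3.04e-08). That is 47170 normalized counts in Dahomey and 62679 in Oregon R.

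COX7C (FBgn0040773, arm 2R) and COX6B (FBgn0031066, X chromosome), a subunit that in mammals faces the space between the membranes, followed with -0.30 ± 0.067 and -0.22 ± 0.050 in the authors' deposited table, at DESeq2 adjusted p of 4.91e-05 and 7.22e-05. COX8 at -0.37 ± 0.088, COX5B at -0.22 ± 0.072 and COX7A at -0.21 ± 0.050 in the authors' deposited table also passed. COX7A had the lowest mean of the complex, at 23149. The gene levy, whose product corresponds to the mammalian subunit 6A and whose loss causes paralysis and neurodegeneration in flies, had -0.14 ± 0.063 in the authors' deposited table and missed the threshold with a DESeq2 adjusted p of 0.0770. COX4 (FBgn0032833, arm 2L), which in human cells joins the core early in assembly, had the highest mean of the complex, 144191. It alone had a positive value, and the other 8 genes had negative ones. The log2 fold change of COX4 was 0.036 ± 0.071 in the authors' deposited table. Its 95% interval of -0.10 to 0.17 held 0, and a difference from the other genes was not tested.

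ATP synthase has a catalytic head, in which alpha and beta subunits alternate, turned by a central stalk on a ring in the membrane and held by a peripheral stalk. Both genes of the head were lower in Dahomey. ATPsynbeta encodes the catalytic beta subunit (FBgn0010217, chromosome 4) and had the highest mean of all 33 genes, 380353, with a log2 fold change of -0.33 ± 0.070 (SE; DESeq2 adjusted p = 2.77e-05) in the authors' deposited table. Split by strain this corresponds to 337647 normalized counts in Dahomey and 423060 in Oregon R. The gene blw encodes the alpha subunit (FBgn0011211, arm 2R), and the authors' deposited table gave it a mean of 196592 and -0.28 ± 0.048 (DESeq2 adjusted p = 5.27e-08), or 177554 normalized counts in Dahomey and 215631 in Oregon R. The fold changes of the pair differed by less than the SE of ATPsynbeta.

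In the central stalk, sun and ATPsyndelta passed and ATPsyngamma did not. The gene sun encodes the epsilon subunit, a protein that is also known as a ligand of the receptor Methuselah (FBgn0014391, X chromosome). It had the lowest value of ATP synthase, -0.47 ± 0.061 in the authors' deposited table (DESeq2 adjusted p = 1.29e-13), from a mean of 47122. This corresponds to 39443 normalized counts in Dahomey and 54801 in Oregon R, a difference of -28.0%. ATPsyndelta (FBgn0028342, X chromosome) had a mean of 56669 and -0.30 ± 0.056 in the authors' deposited table (DESeq2 adjusted p = 9.00e-07). ATPsyngamma, the rotating shaft, had -0.07 ± 0.058 in the authors' deposited table, and its interval of -0.18 to 0.04 did not reach the value of sun.

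In the peripheral stalk 3 of 4 genes passed. ATPsynCF6 had -0.29 ± 0.056, ATPsynO, the subunit that joins the stalk to the head, -0.22 ± 0.058, and ATPsynD -0.20 ± 0.061 in the authors' deposited table. ATPsynB had -0.044 ± 0.066 there and did not pass, with an interval of -0.17 to 0.08. In the membrane part, ATPsynC encodes the subunit of the rotating ring (FBgn0039830, arm 3R). Its SE was the smallest of the 32 genes: the authors' deposited table gave it a mean of 207155 and -0.35 ± 0.040 (DESeq2 adjusted p = 4.20e-17), or 181797 normalized counts in Dahomey and 232514 in Oregon R. ATPsynF had -0.24 ± 0.057 and passed, and ATPsynE had -0.093 ± 0.042 with a DESeq2 adjusted p of 0.0824, in the authors' deposited table. ATPsynG went the other way, at 0.18 ± 0.074 in the authors' deposited table, with an unadjusted p of 0.0183 and a DESeq2 adjusted p of 0.0600. Subunits e, f and g, which ATPsynE, ATPsynF and ATPsynG encode, lie in the membrane outside the ring, where in yeast e and g help to pair the enzyme into dimers.

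**Figure D3:**
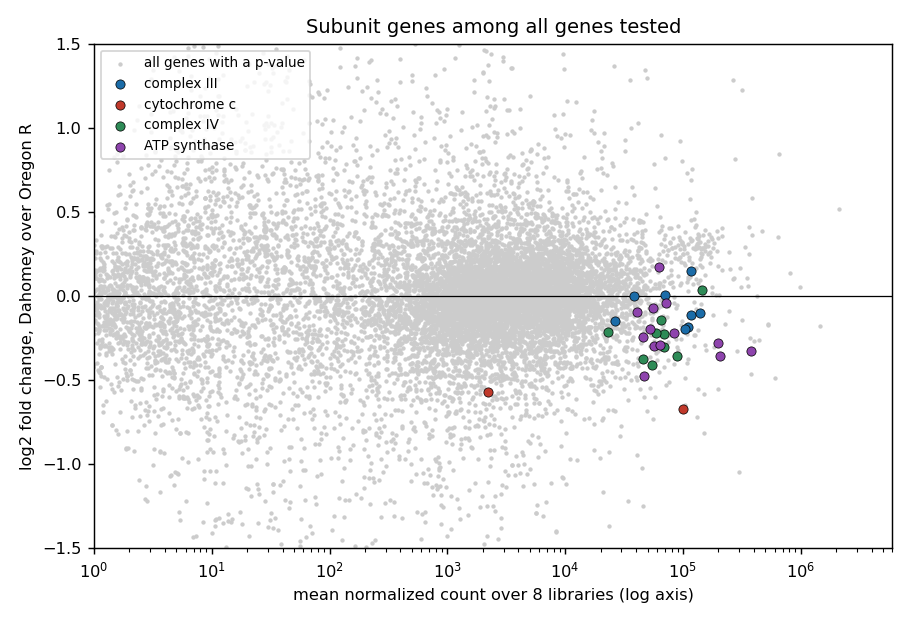
Grey points are genes with a p-value by mean normalized count over 8 libraries (log axis) and log2 fold change, Dahomey over Oregon R, from the authors' deposited table; coloured points are the 32 members. The axes leave out 300 genes with fold changes beyond 1.5 on the log2 scale and 821 genes with means under 1. All members but Cyt-c-d lie at the right, at means from 23149 to 380353.

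Together the 33 genes held 2.50% of the sum of all mean normalized counts. Apart from Cyt-c-d, each of the 32 had a higher mean than at least 94.4% of the genes tested. Their SE, from 0.040 to 0.088, had a median of 0.884 times that of genes with a similar mean. Fold change had little relation to level or length within the set. Across the 32 genes, Spearman's rho was 0.10 with the log10 mean and 0.19 with exonic length, and Pearson's r was 0.21 with the log10 mean and 0.029 with exonic length. These are descriptions across genes of the same libraries, which are not independent replicates.

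Subunits that are present in equal or simple ratios in the finished enzyme did not have equal transcript levels. Per 1000 exonic bases of the BDGP6 annotation, ATPsynbeta had 159411 normalized counts and blw 87297, a level 1.83 times as high for the beta subunit. Among the 9 complex IV genes of the set, 8 lay within 2-fold of COX4, the highest of them at 117134 normalized counts per 1000 bases. COX7A was the lowest of the set at 33212. Outside the set, COX7B had 181772 and COX7AL2 had 33785 normalized counts per 1000 bases. In complex III the order ran from UQCR-14 at 198127, whose annotated exons lie within those of CG32576, to UQCR-6.4 at 47074 normalized counts per 1000 bases. ATPsyndelta had the lowest level per length of ATP synthase, 14847, over an annotated exonic length of 3817 bases, of which 35.6% also belong to CG2962 on the opposite strand; CG2962 itself had a mean of 56.4. The spread of these levels over libraries is not known, and the annotated exons may be longer than those used in this tissue.

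**Figure D4:**
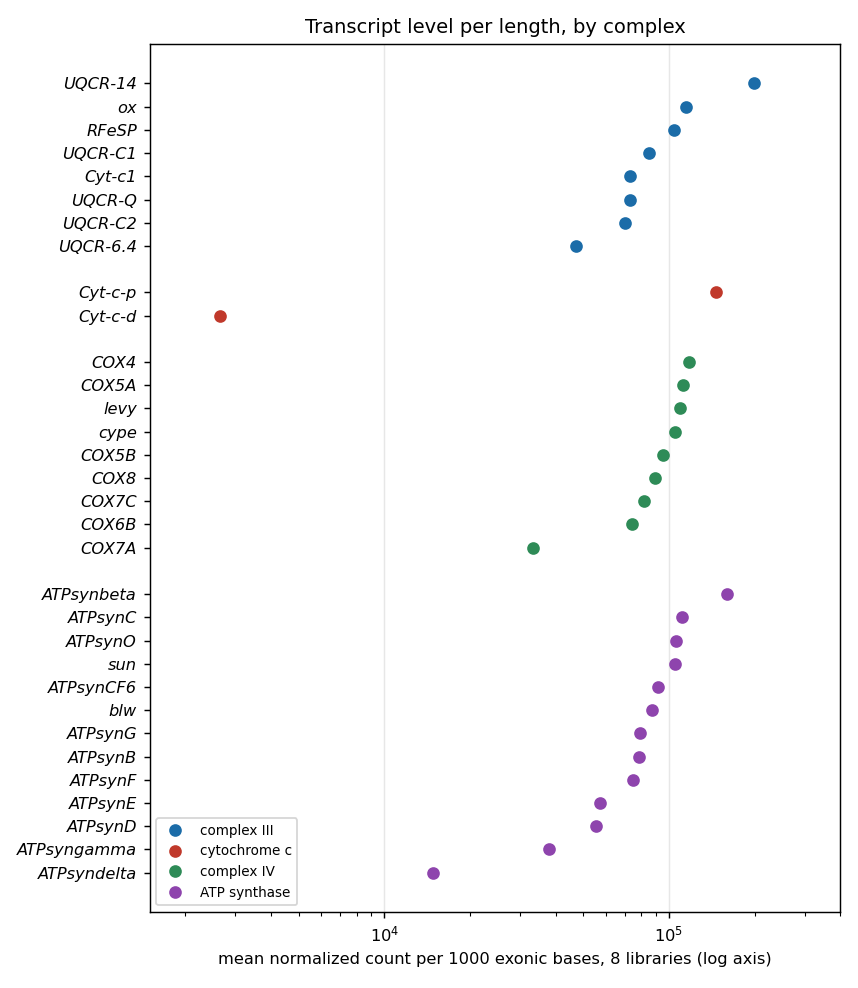
Points give the transcript level of each of the 32 genes per length, as the authors' mean normalized count over 8 libraries divided by 1000 exonic bases (log axis), ordered within each complex. Most genes lie between 47074 and 198127. Below them are ATPsyngamma at 37788, COX7A at 33212, ATPsyndelta at 14847 and Cyt-c-d at 2646.

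The lower values were spread over the genome. Of the genes with a p-value, 4 of 7 on arm 2L, 3 of 6 on arm 2R, 2 of 5 on arm 3L, 6 of 9 on arm 3R, 4 of 4 on the X chromosome and the 1 on chromosome 4 were lower in Dahomey. On each of these arms the share of all genes that were lower in Dahomey was between 10.7% and 15.6%. Nearest protein-coding neighbours of the 32 genes were lower in Dahomey in 10 and higher in 8 of 58 cases, or 17.2% and 13.8%, and had a median log2 fold change of -0.034. Exons overlapped those of another annotated gene in 16 of the 33, in 7 of them over more than 10% of the exonic bases. Among the 16 genes with a p-value and no overlap, 10 were lower in Dahomey, and their median log2 fold change was -0.20.

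The partners that the mitochondrial genome encodes had no p-value. The authors' deposited table gave negative log2 fold changes for all 6 of them, with SE several times those of the nuclear genes: for complex III, mt:Cyt-b had -0.02 ± 0.41; for complex IV, mt:CoI had -0.29 ± 0.37, mt:CoII -0.59 ± 0.33 and mt:CoIII -0.43 ± 0.36; and for ATP synthase, mt:ATPase6 had -0.31 ± 0.42 and mt:ATPase8 -0.36 ± 0.27. Each SE was larger than that of any nuclear gene of the set, and none of the 6 fold changes reached 2 SE. The 6 genes belong to the same genome and were measured in the same libraries, so their shared sign is not 6 independent observations.

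Of the other complexes of the chain, complex I had 18 of 39 genes with a p-value lower in Dahomey and 3 higher. These are 46.2% and 7.69%, against 14.7% and 14.8% of all genes, and the median log2 fold change was -0.16. The complex I list took every symbol that starts with ND-, including 7 genes with means under 100. ND-B17 and ND-B18 had the smallest p among its lower genes, at -0.45 ± 0.069 and -0.43 ± 0.069 in the authors' deposited table. The genes ND-13B and ND-B12 had the smallest p among its higher genes, and the 0.76 ± 0.058 of ND-13B (DESeq2 adjusted p = 3.24e-38) was larger in size than the value of any member; ND-B12 had 0.20 ± 0.059, both in the authors' deposited table. Complex II had 2 of 4 lower in Dahomey. SdhA, the flavoprotein subunit, had -0.82 ± 0.089 (DESeq2 adjusted p = 1.45e-18), a lower value than that of Cyt-c-p, and SdhB, the iron-sulphur subunit, had -0.30 ± 0.097, according to the authors' deposited table. Whether these shares differ from those of complexes III and IV and ATP synthase was not tested.

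Of 8 genes for carriers and channels that supply and unload ATP synthase or bypass it, 4 were lower in Dahomey. This share of 50% compares with 14.7% of all genes. The gene sesB encodes the main carrier that exchanges ADP for ATP, and had a mean of 440735 and -0.26 ± 0.057 in the authors' deposited table; Ant2, the minor form, had 0.016 ± 0.062. The phosphate carrier gene Mpcp1 had -0.49 ± 0.076 and Ucp4A, an uncoupling protein gene, -0.49 ± 0.076 in the authors' deposited table. The other phosphate carrier gene, Mpcp2, had 0.077 ± 0.046 there and did not pass. The gene porin, for the channel of the outer membrane, passed at -0.20 ± 0.064 in the authors' deposited table.

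The assembly factors and regulators that were matched did not share one direction. Of 20 symbols of assembly factors, which included other spellings of the same genes, 10 matched a gene in the table. Among these 10 genes 3 were lower and 2 higher in Dahomey, or 30% and 20%, against 14.7% and 14.8% of all genes. Cox11 and Cox17, which in yeast bring copper to complex IV, had -0.45 ± 0.074 and -0.26 ± 0.098 in the authors' deposited table. Bcs1, which in yeast inserts the Rieske protein into complex III, had 0.80 ± 0.085 (DESeq2 adjusted p = 2.85e-19), opposite in sign to RFeSP, in the authors' deposited table. Ccdc56, a complex IV factor, had 0.36 ± 0.077 there, on a row equal in every value to that of mtTFB1, a gene for expression of the mitochondrial genome, so these 2 were counted on the same reads. Of 10 genes for regulators and mitochondrial genome expression, 2 were higher, mtTFB1 and Dref, and none was lower at the adjusted threshold by the authors' DESeq2 test, with 1 lower at an unadjusted p under 0.05. Dref, a transcription factor of DNA replication genes, had 0.21 ± 0.073, TFAM, which packs the mitochondrial genome, -0.12 ± 0.073, and srl, the fly gene of the PGC-1 family, 0.24 ± 0.18 with no p-value, in the authors' deposited table.

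Most of the other genes whose symbols begin like those of the set, paralogs and further subunits, had low means. Of 15, 3 passed, all lower in Dahomey, or 20% against 14.7% of all genes. They included COX7AL2 with a mean of 31859 and -0.55 ± 0.10, and COX7B with a mean of 75799 and -0.23 ± 0.072. The last was COX6AL2 with a mean of 431 and -0.51 ± 0.13, all in the authors' deposited table. Means of the other 12 ran from 0.106 to 346, far below those of the members they resemble, among them Cyt-c1L at 39.6, COX4L at 70.6 and ATPsynbetaL at 6.64. UQCR-11L, the paralog of the gene listed at 0, had a mean of 43.0.

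Some marker genes of the cell types in the tissue also differed between strains, where 14.7% of all genes were lower in Dahomey and 14.8% higher. The muscle list split, with 4 of 14 genes lower in Dahomey and 5 higher and a median log2 fold change of 0.077. Its genes of the highest mean, Mf and Mhc, had -0.49 ± 0.11 and 0.16 ± 0.061 in the authors' deposited table. Act88F, the muscle gene without a p-value, had 1.25 ± 0.16 there, while TpnC4 and fln had -0.77 ± 0.10 and -0.50 ± 0.083. Summed in the same way as above, the 15 muscle genes came to 2025446 normalized counts in Dahomey and 2153932 in Oregon R, a difference of -5.97%. Mf, with a mean of 601088, held the largest part of these muscle sums, and their difference was opposite in sign to the median of the list. Photoreceptor genes had 3 of 6 lower, with sums of 2007512 in Dahomey and 2229795 in Oregon R. Most of the photoreceptor sums came from ninaE, with a mean of 1452797 and -0.18 ± 0.11, which did not pass. Neuron genes had 3 of 7 lower, with sums of 103028 in Dahomey and 122505 in Oregon R. Fat body genes had 3 of 4 higher, and the sums of all 5 were 3237323 in Dahomey and 2314170 in Oregon R. Most of those sums came from Yp1, with a mean of 2092636, and the gene without a p-value, Lsp2, lay the other way at -1.91 ± 0.39, from a mean of 4074, in the authors' deposited table. None of these marker genes was listed at 0. Their part in the values of the respiratory genes was not tested.

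**Figure D5:**
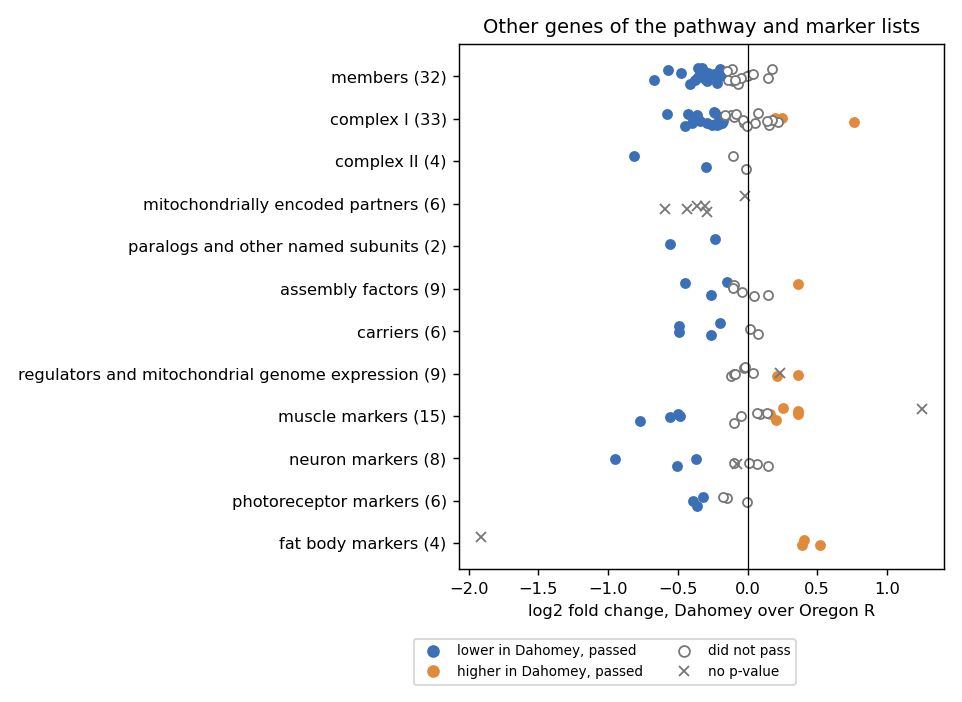
Points are log2 fold changes, Dahomey over Oregon R, from the authors' deposited table, of the 32 members and of genes with a mean of at least 1000 in other lists of the pathway and of cell type markers, with the number plotted in parentheses and a small vertical jitter. Colour marks genes that passed an adjusted p of 0.05, and crosses mark genes with no p-value, such as all 6 mitochondrially encoded partners.

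The tissue carried the genes that its label implies. The opsin gene ninaE had a mean of 1452797 and the photoreceptor arrestin gene Arr2 427515, and the muscle genes Mf and Mhc had 601088 and 252776, in the authors' deposited table. Syt1 and nSyb, the neuron genes of the highest mean, had 41449 and 27423. Genes of other sources were present as well: midgut Amy-p and betaTry had means of 300725 and 279072, the blood cell genes Hml and PPO1 16586 and 9165, and the germline genes osk and Cp36 11153 and 2952, in the authors' deposited table. Midgut genes had 3 of 4 lower in Dahomey, with log2 fold changes of -7.74 for LysD, -6.47 for Jon99Ci and -1.04 for Amy-p, and 1 higher, betaTry at 0.81, in the authors' deposited table. In the remaining lists, none of the 3 blood cell genes passed the authors' DESeq2 test, with 1 lower at an unadjusted p under 0.05, and 4 of 5 ovary and germline genes had no p-value.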

How the data were processed

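Per the labels' protocols, RNA of all samples was prepared together and poly(A) libraries were made with an Illumina kit, which is of a kind that does not mark strand. The submitters' processing notes name bcl2fastq, FastQC, TopHat2 2.0.7, DESeq2 and build BDGP5; counting program and annotation: not given in the sources used here. Per the file headers, the deposited table holds a mean (a signal, in normalized counts), a log2 fold change, its SE (a score) and p-values from the authors, in 14944 rows. The p-values equalled those of a 2-sided Wald test within 4.1e-15. The 633 rows with a mean of 0 and the 916 others without a p-value entered no count of calls.

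No value per library was used, so the authors' DESeq2 adjusted p under 0.05 replaced the count model first planned, and depth per library is unknown. The labels do not say whether libraries came from separate cultures; p-values cover the spread between these libraries, which may be technical. Each gene ID kept its row of highest mean, and rows with equal values (means of at least 10) counted once, leaving 13065 genes with a p-value. Symbols matched 14367 of 14701 IDs. Arms, exons, overlaps and neighbours came from a BDGP6 annotation by gene ID, and no coordinates are given because the builds differ. Intervals are normal 95% limits from the authors' SE. A mean was split by strain as the average of 2 group means in the ratio of the fold change. The sources used here do not state whether the authors' fold changes were drawn toward 0 for noisy genes. The largest SE of the 13065 genes was 0.42, and UQCR-14L, at a mean of 0.106, had an SE of only 0.086. An SE that small at so few reads goes with fold changes drawn toward 0, which was not tested.

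Members and lists were chosen with earlier results of these data known. Every member is named, with full values for up to 4 lower and 2 higher members of smallest p per complex and the one of the highest mean; other lists gave up to 2 genes in each direction, and further genes were chosen after their values were seen. Promoter motifs were not analysed here. The Wald and Benjamini-Hochberg steps were tested on simulated data, run with scipy 1.17.1, pandas 2.3.3 and numpy 2.4.6 under Python 3.11.15; matplotlib 3.10.9 drew the figures.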

Additional observations from a re-analysis of the deposited data

How the results depend on the processing

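Of the 32 genes with a p-value, 20 stayed lower in Dahomey when the adjustment was recomputed over 1 row per gene, when the row of the lowest mean was kept, when rows shared with another ID were left out, and when fold changes were centred on the median of all genes. With an adjusted p under 0.01 the count was 18, without Cyt-c1 and UQCR-14, so that complex III had 0 lower, against 11.4% of all genes. A minimum fold of 1.2 left 12. Tested over genes with a mean of at least 1000, 1 gene became higher in Dahomey, ATPsynG (adjusted p = 0.0475). Centring moved ox to 0.0047. Chosen after seeing the data, leaving out members with exonic overlap left 10 lower of 16, since fewer were counted, and centring on the median of genes with a mean of at least 10000 gave 23 lower, adding levy, ATPsynE and UQCR-6.4, and put UQCR-Q at -0.024. The median log2 fold change of the members ran from -0.25 to -0.20 over these settings. No paired analysis was possible because the table has no column for a single library; for the same reason other normalizations, count filters and leaving out a library were not run.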
